A study of Bos taurus with 3 samples.

Results

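The genes described here carry glucose into the cell and break it down to pyruvate and lactate: the glucose carrier SLC2A1, the enzymes HK2, PFKP, ALDOA, GAPDH, PGK1, ENO1 and PKM, and the lactate dehydrogenase subunits LDHA and LDHB. They were taken by symbol and are 10 of the 19533 genes in the count matrix, of which 18326 had at least 1 transcript. Their Ensembl identifiers are ENSBTAG00000009617 for SLC2A1, ENSBTAG00000013108 for HK2, ENSBTAG00000002683 for PFKP, ENSBTAG00000012927 for ALDOA, ENSBTAG00000014731 for GAPDH, ENSBTAG00000000894 for PGK1, ENSBTAG00000013411 for ENO1, ENSBTAG00000001601 for PKM, ENSBTAG00000008683 for LDHA and ENSBTAG00000019603 for LDHB. The matrix held single epithelial cells from the ventral sac of the rumen of 3 adult, lactating Holstein dairy cows, with 1 library per cow. The animals are called cow 1, cow 2 and cow 3 here after the number in the sample titles. No treatment was compared. The tissue had been taken apart with EDTA, trypsin and a mixture of collagenases, dispase, hyaluronidase and DNase, dead cells had been removed, and the libraries were made with the 10x Chromium 3′ v3 kit, which counts each captured transcript once by its unique molecular identifier (UMI), whatever the length of the gene.

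Glycolysis splits glucose into pyruvate in the cytosol. Hexokinase traps glucose as its phosphate, phosphofructokinase commits it to the pathway, aldolase cleaves the sugar, and the enzymes from GAPDH to pyruvate kinase recover ATP. Lactate dehydrogenase then interconverts pyruvate and lactate as a tetramer of LDHA and LDHB subunits, of which LDHA-rich forms are classically found in tissues that make lactate and LDHB-rich forms in tissues that oxidize it. The rumen wall is known for taking up and metabolizing the volatile fatty acids made by its microbes, so its cells have several fuels besides glucose.

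Cells were placed in 7 states by the transcripts of 5 genes, tested in a fixed order. Cells with at least 2 UMIs of TOP2A, a topoisomerase of dividing cells, formed the TOP2A state, and of the others those with at least 5 UMIs of BPIFA2C, a member of the BPI fold family of secreted proteins, formed the BPIFA2C state. The rest were divided at 2 UMIs of GJA1, the gap junction protein connexin 43, and of GSTA1, a glutathione transferase, into GJA1+GSTA1+, GJA1+GSTA1- and GSTA1+GJA1- states. A minus sign means fewer than 2 UMIs, not absence. Of the cells with fewer than 2 UMIs of each, those with at least 2 of DLK2, a Notch pathway protein, formed the DLK2 state. All others are called the remaining cells. The states held 1665 TOP2A, 519 BPIFA2C, 654 GJA1+GSTA1+, 104 GJA1+GSTA1-, 2336 GSTA1+GJA1-, 3254 DLK2 and 12196 remaining cells of 20728 in all. Only 6 GJA1+GSTA1- cells came from cow 3, so that state was described in cows 1 and 2. Because 4290 cells had exactly 1 DLK2 UMI, the remaining cells held many in which DLK2 was detected below the threshold.

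The libraries held 3369, 7401 and 9958 cells with median UMI counts of 10342, 12051 and 9747, and 35 barcodes occurred in more than 1 library. The epithelial keratins were abundant, with 850587 UMIs of KRT14 and 1243591 of KRT5, whereas the detected markers of fibroblasts had at most 5 UMIs each. The summed level of the immune markers stayed at or under 0.121 per 10000 UMIs in every state of every cow. Some markers of other cells gave more UMIs, with 819 of the immune marker CD68, 563 of the endothelial VWF and 107 of the smooth muscle ACTA2. The states differed in depth: the median cell held 9735.5 UMIs in the DLK2 state and 9419.5 among the remaining cells, but 16045 in the GJA1+GSTA1+ state, 13377.5 in the GSTA1+GJA1- state, 17402 in the BPIFA2C state and 15347 in the TOP2A state. The mitochondrial share of UMIs was also unequal, with a median of 9.96% in the DLK2 state and 16.1% in the GJA1+GSTA1+ state. Levels below are UMIs per 10000 UMIs of all genes, summed over the cells of a state in a cow. Differences are log2 fold changes between states within cows, from edgeR's quasi-likelihood test across 10174 genes with Benjamini-Hochberg adjustment, and a call needed both a log2 fold change past 0.25 in either direction and an adjusted p below 0.05. Several contrasts share a state, the remaining, DLK2 or GJA1+GSTA1+ cells, and are therefore not independent.

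The carrier was sparse and the named hexokinase and phosphofructokinase were barely detected. SLC2A1, the basal glucose carrier of many epithelia, gave 3352 UMIs in the whole data set, against 118 of HK2 and 31 of PFKP. HK2 and PFKP did not pass the filter on low counts, so 8 of the 10 genes were tested. HK2 gave 10, 21 and 0 UMIs in the DLK2 cells of cows 1, 2 and 3, and 0 in the GJA1+GSTA1+ cells of each of them. A count of 0 there allows up to 0.0107, 0.00694 and 0.00782 UMIs per 10000 in cows 1, 2 and 3, the level of 3 UMIs. The DLK2 state of cows 1 and 2 stood at 0.0168 and 0.00926, with counting error of its own. The limits cover counting error only, and a difference in HK2 was not tested. PFKP had at most 12 UMIs in any state of any cow.

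Other isoforms of these enzymes were detected, namely HK1, the hexokinase made by most cells, and the liver- and muscle-type phosphofructokinases PFKL and PFKM; these genes were picked after their values were seen. In the DLK2 state HK1 stood at a mean of 0.328 per 10000, PFKL at 0.263 and PFKM at 0.129. HK2 and PFKP averaged 0.00867 and 0.00298 there.

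The other members were detected in every state. SLC2A1 had its lowest mean in the DLK2 cells, at 0.143 ± 0.0292 UMIs per 10000 (SD, n = 3), and its highest in the GJA1+GSTA1+ cells, at 0.193 ± 0.0177. PKM ran from 1.22 ± 0.418 in the BPIFA2C cells to 1.87 ± 0.686 in the TOP2A cells. GAPDH ran from 6.30 ± 3.29 in the TOP2A cells to 9.54 ± 3.60 in the GSTA1+GJA1- cells. For GAPDH and PKM the spread between cows was about as wide as these differences between states, so the comparisons that follow were made within cows.

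**Figure D1:**
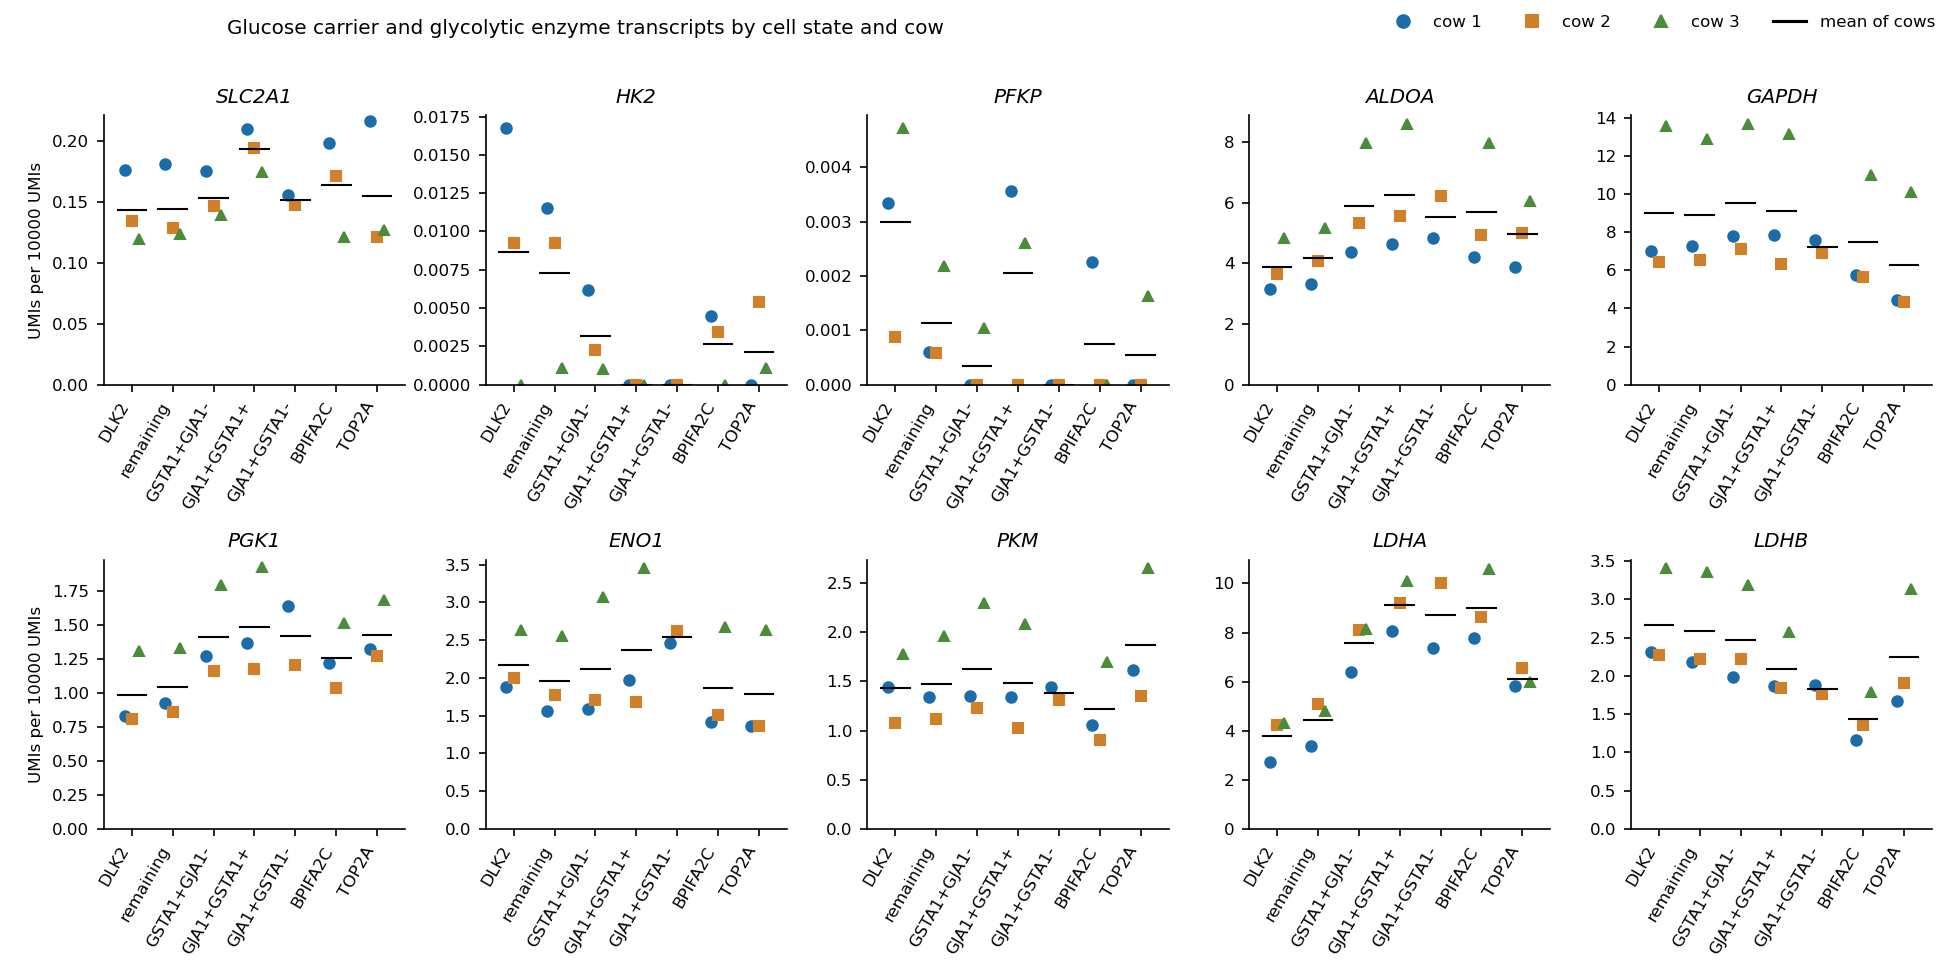
UMIs per 10000 UMIs of each gene (vertical axis, from 0, a separate scale for each gene) in the 7 cell states, with 1 point per cow and a bar at the mean of the cows. LDHA, ALDOA and PGK1 are lowest in the DLK2 and remaining cells in each cow, LDHB is lowest in the BPIFA2C state, and cow 3 lies highest for GAPDH in each state in which it is drawn.

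Among the 6 contrasts, LDHA, ALDOA, PGK1 and SLC2A1 differed most between the GJA1+GSTA1+ and the DLK2 states. These 4 genes were higher in the GJA1+GSTA1+ cells, no member was called lower, and GAPDH, ENO1, PKM and LDHB were not called. Thus edgeR called 4 of the 8 tested members, all higher, DESeq2 also called 4, and 6 had an unadjusted p under 0.05. Among all 10174 tested genes 5229 had an unadjusted p under 0.05. Of all tested genes 44.2% were called in this contrast, 21.6% higher and 22.5% lower, so the members' share was near that of all genes. The median log2 fold change was 0.40 over the 8 members and -0.04 over all tested genes.

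LDHA had 2.75, 4.22 and 4.33 UMIs per 10000 in the DLK2 cells of cows 1, 2 and 3, and 8.08, 9.19 and 10.1 in their GJA1+GSTA1+ cells. The groups did not overlap. The mean rose from 3.77 ± 0.884 to 9.13 ± 1.02 (SD, n = 3), a log2 fold change of 1.43 ± 0.11 (SE), or 2.70-fold, with an edgeR adjusted p of 2.711e-10.

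ALDOA, the aldolase that cleaves fructose bisphosphate, had 3.17, 3.66 and 4.83 per 10000 in the DLK2 cells and 4.64, 5.57 and 8.62 in the GJA1+GSTA1+ cells of cows 1, 2 and 3. It was higher within each cow, although cow 3's DLK2 cells lay above cow 1's GJA1+GSTA1+ cells. Its log2 fold change was 0.81 ± 0.09 (edgeR adjusted p = 5.584e-08). PGK1, which makes the first ATP of the pathway, went from 0.831, 0.808 and 1.31 to 1.36, 1.17 and 1.92, again higher within each cow with overlap between cows. Its log2 fold change was 0.74 ± 0.09 (edgeR adjusted p = 5.808e-07). SLC2A1 went from 0.176, 0.134 and 0.120 to 0.210, 0.194 and 0.175. These levels rest on 485 UMIs in the DLK2 cells and 210 in the GJA1+GSTA1+ cells, and the gene differed by 0.59 ± 0.12 on the log2 scale (edgeR adjusted p = 0.0003332).

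The other members differed less. GAPDH, which oxidizes the triose phosphate, had 7.04, 6.42 and 13.6 per 10000 in the DLK2 cells and 7.88, 6.31 and 13.2 in the GJA1+GSTA1+ cells, with a log2 fold change of 0.18 (95% interval 0.0063 to 0.34), although its level per 10000 was higher in 1 of 3 cows. ENO1, the enolase, differed by 0.21 (-0.0026 to 0.43) and PKM, the pyruvate kinase, by 0.16 (-0.013 to 0.33). Under scaling by total UMIs these differences were 0.033 for GAPDH, 0.068 for ENO1 and 0.015 for PKM. LDHB had 2.32, 2.27 and 3.41 in the DLK2 cells and 1.86, 1.84 and 2.57 in the GJA1+GSTA1+ cells. It was lower in 3 of 3 cows, but its log2 fold change of -0.20 ± 0.08 lay inside the fold threshold (edgeR adjusted p = 0.04982).

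Without the cow as a term in the fit, LDHA and PGK1 kept the call and 2 members in all were called, with edgeR adjusted p of 0.09324 for ALDOA and 0.07375 for SLC2A1. In an alternative called gates on thinned cells, each cell was thinned to 2500 UMIs and gated on what was left, at 1 UMI in place of 2 and at 3 of BPIFA2C in place of 5; 342 shallower cells were left out and the full counts were summed, so that depth and threshold changed together. There the log2 fold change was 1.48 for LDHA, 0.88 for ALDOA, 0.69 for PGK1 and 0.35 for SLC2A1, all called, and LDHB was called lower at -0.33. Under scaling by total UMIs LDHB was also called lower, at -0.34. ENO1 was called higher when cow 2 was left out (0.39), with gates at 1 UMI (0.33) and in states drawn from clusters (0.32), and GAPDH in those from clusters (0.33). The clusters were made in each cow without the members and listed genes, and their states held 55.4% of the gated GJA1+GSTA1+ cells and 71.7% of the DLK2 cells. With the mitochondrial genes taken out of the totals the 4 members were still called, LDHA at 1.41 and SLC2A1 at 0.56.

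**Figure D2:**
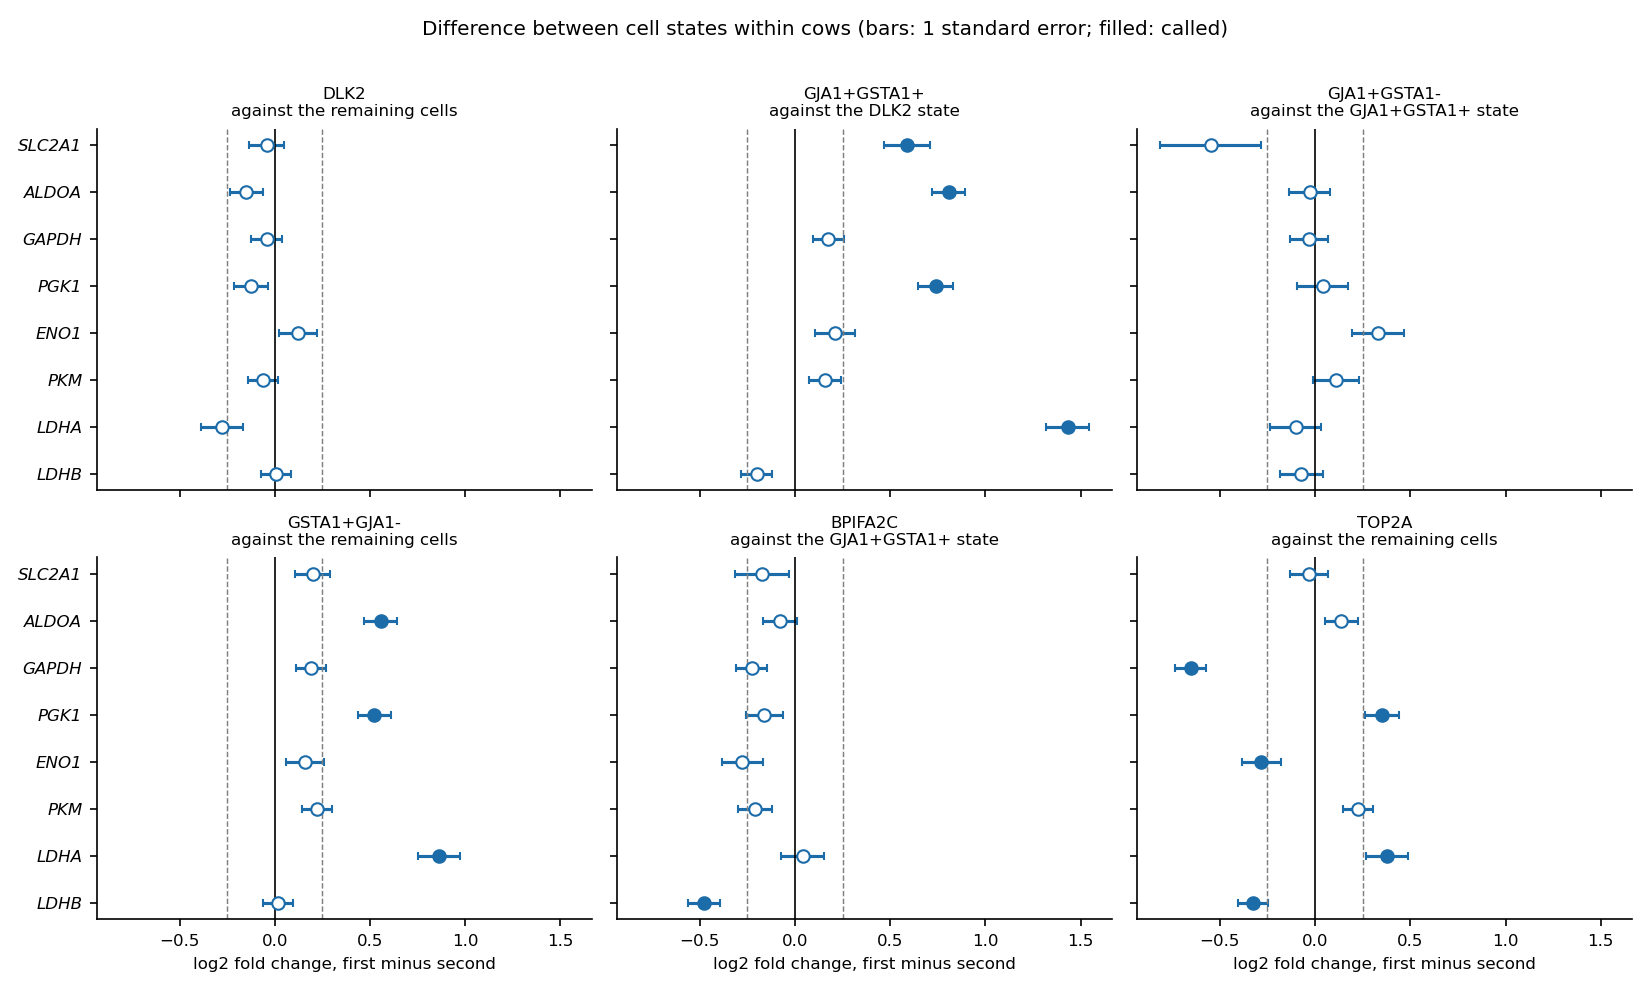
log2 fold change of the 8 tested genes (horizontal axis, first state minus second) in the 6 contrasts, with bars of 1 standard error, filled points for genes called and dashed lines at 0.25 in either direction. LDHA, ALDOA and PGK1 lie to the right in the GJA1+GSTA1+ and the GSTA1+GJA1- panels, and GAPDH lies farthest to the left in the TOP2A panel; under scaling by total UMIs ENO1 and LDHB lose the call in the TOP2A panel.

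The rest of the pathway was read from lists of 83 genes in 7 groups. Of 28 other glycolytic enzymes and glucose carriers, 13 were tested in the same contrast; 5 were called higher and 1 lower. TPI1, which interconverts the triose phosphates, went from 1.38 ± 0.196 to 2.44 ± 0.748 per 10000 (log2 fold change 0.94 ± 0.08, edgeR adjusted p = 2.904e-09), PFKL from 0.263 ± 0.0124 to 0.458 ± 0.0945 (0.88 ± 0.14, 1.088e-05) and GPI, which turns glucose phosphate into fructose phosphate, from 0.972 ± 0.0955 to 1.46 ± 0.378 (0.70 ± 0.09, 1.284e-06). The median of the 13 was 0.22. The inositol carrier SLC2A13 was called lower at -1.39 ± 0.54 but lost the call when any cow was left out. SLC5A1, the sodium-coupled glucose carrier of the intestine, had 1 UMI in the GJA1+GSTA1+ cells and 2 in the DLK2 cells.

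The enzymes that set the level of fructose 2,6-bisphosphate, an activator of phosphofructokinase, split in direction. PFKFB4 went from 0.0239 ± 0.00689 to 0.112 ± 0.0314 per 10000 (log2 fold change 2.36 ± 0.24, edgeR adjusted p = 1.857e-08), while PFKFB3 was lower at -1.40 ± 0.32 (edgeR adjusted p = 0.0008582), a call lost without cow 2. The remaining tested gene of that group, PFKFB2, was not called.

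In the list of genes for pyruvate entry to mitochondria and its control, 7 of 10 tested were called higher and 2 lower, with a median log2 fold change of 0.63. The higher genes were the carrier gene MPC2, DLAT, PDHA1, PDHB, DLD and PDHX of the pyruvate dehydrogenase complex, and PDK3, a kinase that switches the complex off. The lower genes were PDK4 and PDK1, kinases of the same kind. The pyruvate dehydrogenase subunits PDHA1 (0.92 ± 0.08, edgeR adjusted p = 3.049e-09) and DLAT (1.17 ± 0.10, 1.422e-09) rose. The kinases went opposite ways. PDK4 averaged 2.46 ± 1.89 per 10000 in the DLK2 cells and 0.317 ± 0.246 in the GJA1+GSTA1+ cells, lower within each cow although cows overlapped (-2.76 ± 0.19, 2.531e-11), whereas PDK3 rose from 0.498 ± 0.0725 to 1.02 ± 0.219 (1.16 ± 0.13, 7.658e-08). PDK1 was lower at -0.61 ± 0.12 (edgeR adjusted p = 0.0001748), a gene chosen after its values were seen. PDK4, PDK1, PFKFB3 and SLC2A13 were not called without the cow term.

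Of 4 tested gluconeogenic genes, 3 were called higher. FBP1, a fructose bisphosphatase, went from 0.00505 ± 0.00179 to 0.0811 ± 0.0271 per 10000 (3.95 ± 0.34, edgeR adjusted p = 9.665e-10), from 18 UMIs to 88, and PCK2, the mitochondrial phosphoenolpyruvate carboxykinase, from 0.110 ± 0.0135 to 0.537 ± 0.184 (2.51 ± 0.23, 3.196e-09). G6PC3, a glucose phosphatase, was higher at 0.53 ± 0.13 (0.001532), a call lost without cow 2. In the glycogen list 3 of 9 tested genes were called higher and 1 lower. Of the pentose phosphate pathway, TALDO1 was higher at 0.45 ± 0.12 (edgeR adjusted p = 0.004473) and PGLS at 0.36 ± 0.10 (0.004304). TALDO1 and PGLS lost their calls without cow 2 and under scaling by total UMIs. PYGB, a glycogen phosphorylase, was higher at 1.71 ± 0.31 (edgeR adjusted p = 7.702e-05), PGM2 at 0.52 ± 0.18 (0.02363) and UGP2 at 0.34 ± 0.10 (0.01107), and GYG1, the glycogen primer glycogenin, was lower at -0.59 ± 0.16 (0.003274). Without cow 2 GYG1, PGM2 and UGP2 lost their calls, and PGM2 and UGP2 also without cow 1 and under scaling by total UMIs. HIF1 is the hypoxia factor known for switching on glycolytic genes. The HIF1 list held other targets but also related subunits and regulators, such as EPAS1, ARNT and EGLN1. It had 3 of 13 tested genes called higher and 5 lower with a median of -0.35, so these values are not of targets alone. P4HA1, a collagen prolyl hydroxylase, was lower at -1.02 ± 0.13 (edgeR adjusted p = 8.938e-07) and the carbonic anhydrase CA12 was higher at 1.35 ± 0.13 (5.229e-09). EGLN3, an oxygen-sensing prolyl hydroxylase, was lower at -1.14 ± 0.30 (edgeR adjusted p = 0.003065), a call lost without cow 1, and EPAS1, the HIF2 alpha subunit, was higher at 0.88 ± 0.12 (2.582e-06). Of the genes of this paragraph, FBP1, PCK2, PYGB and P4HA1 kept their calls without the cow term, and the others named with a difference lost them. The share called among all tested genes in this contrast was the 44.2% given above.

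**Figure D3:**
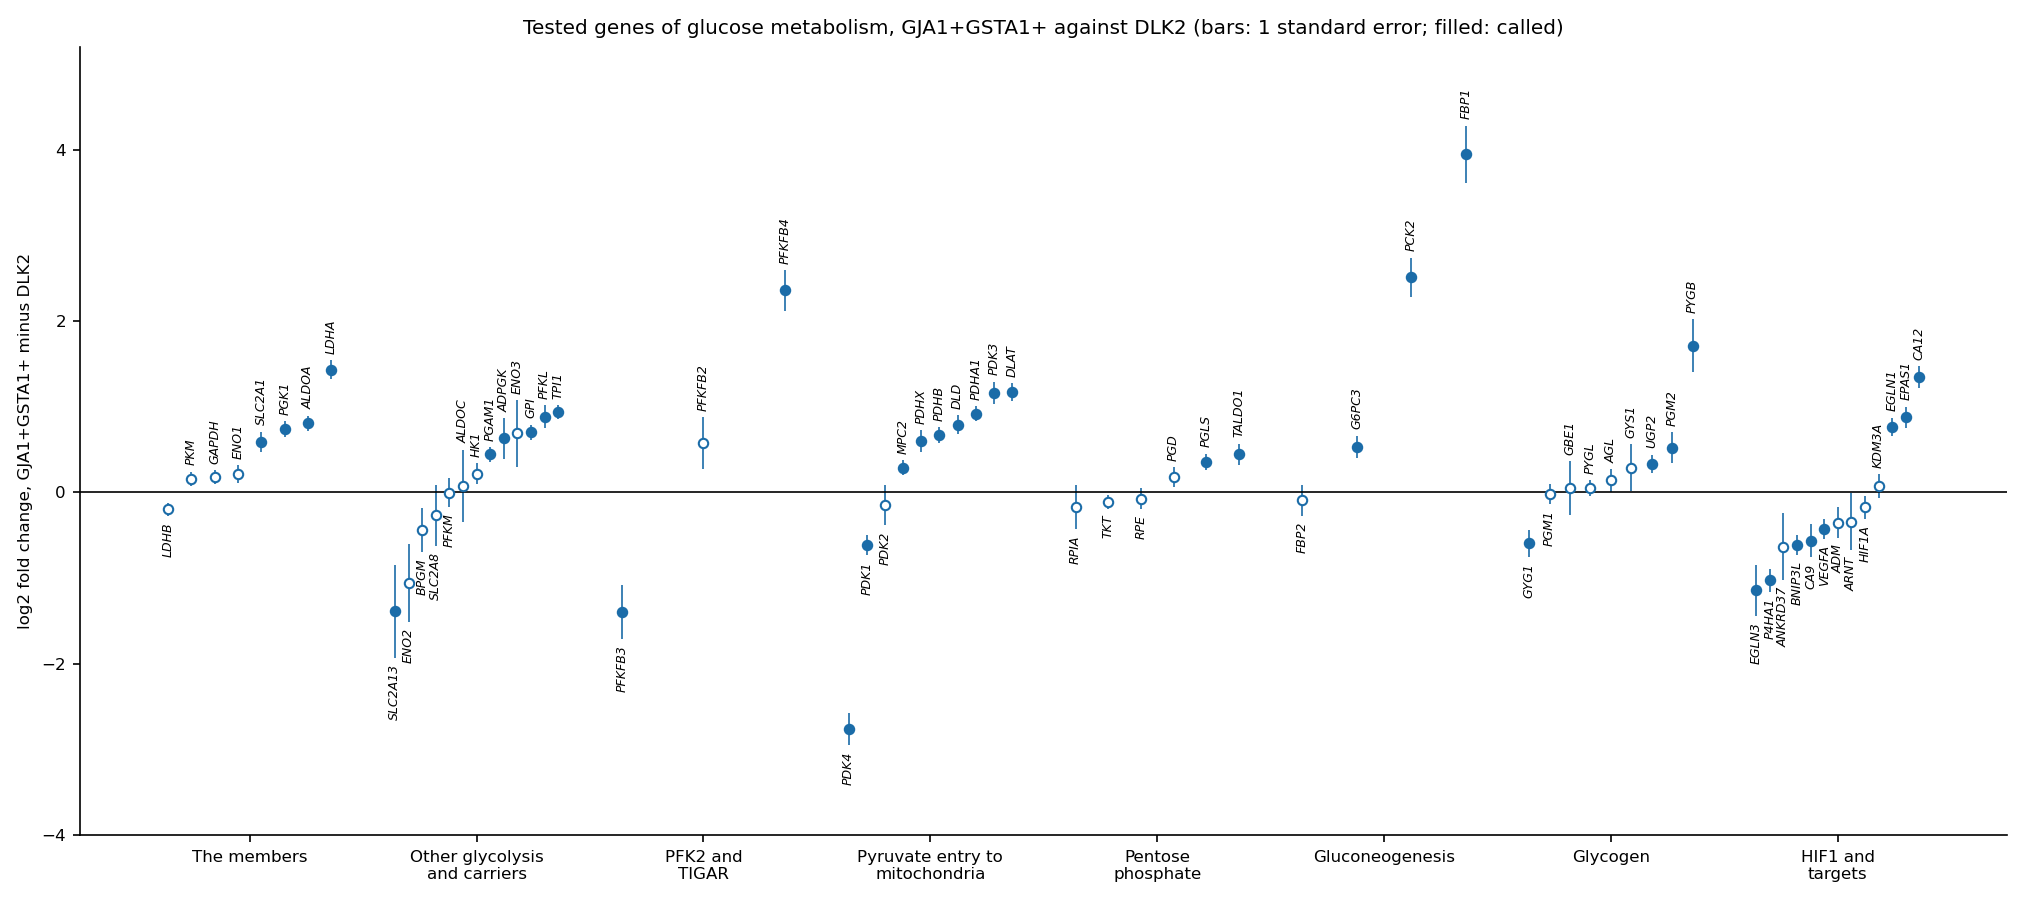
log2 fold change of tested genes of the 8 groups, GJA1+GSTA1+ minus DLK2 (vertical axis, log2 units), with bars of 1 standard error and filled points for genes called. FBP1 stands highest at 3.95 and PDK4 lowest at -2.76, while the 8 members lie between -0.20 and 1.43.

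The balance of lactate dehydrogenase subunits differed between states. In the DLK2 cells LDHB made up 45.7%, 34.9% and 44.0% of LDHA plus LDHB UMIs in cows 1, 2 and 3, and in the GJA1+GSTA1+ cells 18.7%, 16.7% and 20.3%. The groups did not overlap, and the mean difference was -22.99 ± 4.44 points (SD, n = 3). An exact permutation test over the 3 cows gave a two-sided p of 0.25, the smallest that 3 cows allow; 15 pairs of states were computed in this family and none of the 15 could go lower.

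Across states the mean LDHB share ran from 41.6% ± 5.81 in the DLK2 cells through 36.9% ± 5.77 in the remaining cells, 26.4% ± 6.86 in the TOP2A cells, 24.4% ± 3.38 in the GSTA1+GJA1- cells, 18.6% ± 1.79 in the GJA1+GSTA1+ cells and 17.7% ± 3.81 in the GJA1+GSTA1- cells (n = 2) to 13.7% ± 0.717 in the BPIFA2C cells. Neighbors in this order overlapped between cows, except that the GSTA1+GJA1- cells lay above the GJA1+GSTA1+ cells and that the BPIFA2C cells, at 13.1%, 13.6% and 14.5%, lay under every other state. Mean LDHA ran from 3.77 to 9.13 per 10000 over the states, and mean LDHB from 1.44 to 2.66.

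A similar order was seen when the same cells were grouped by their GSTA1 count after thinning. GSTA1 and DLK2 also define the states, so these groupings are not separate observations. Cells were thinned to 5000 UMIs, which left out 1518 shallower cells, and grouped by the GSTA1 UMIs that remained, the levels being taken from the full counts. LDHA was 3.91, 5.04 and 4.96 per 10000 in cows 1, 2 and 3 where no GSTA1 UMI remained, and 8.42, 9.19 and 9.29 where 5 or more did. LDHA was higher at each step of GSTA1 in each cow. The LDHB share was lower at each step, running from 35.3%, 30.5% and 40.6% to 15.6%, 16.9% and 23.3%. GAPDH spanned 6.47 to 12.7 per 10000 over the cows in the lowest group and 6.22 to 12.9 in the highest. These are descriptions, and the untouched depth also differed, since the median cell held between 9478 and 11606 UMIs in the lowest group and between 13534 and 18639.5 in the highest. Grouped by DLK2 instead, LDHA was 5.30, 6.05 and 6.17 per 10000 where no DLK2 UMI remained and 2.92, 3.98 and 4.26 where 2 or more did.

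**Figure D4:**
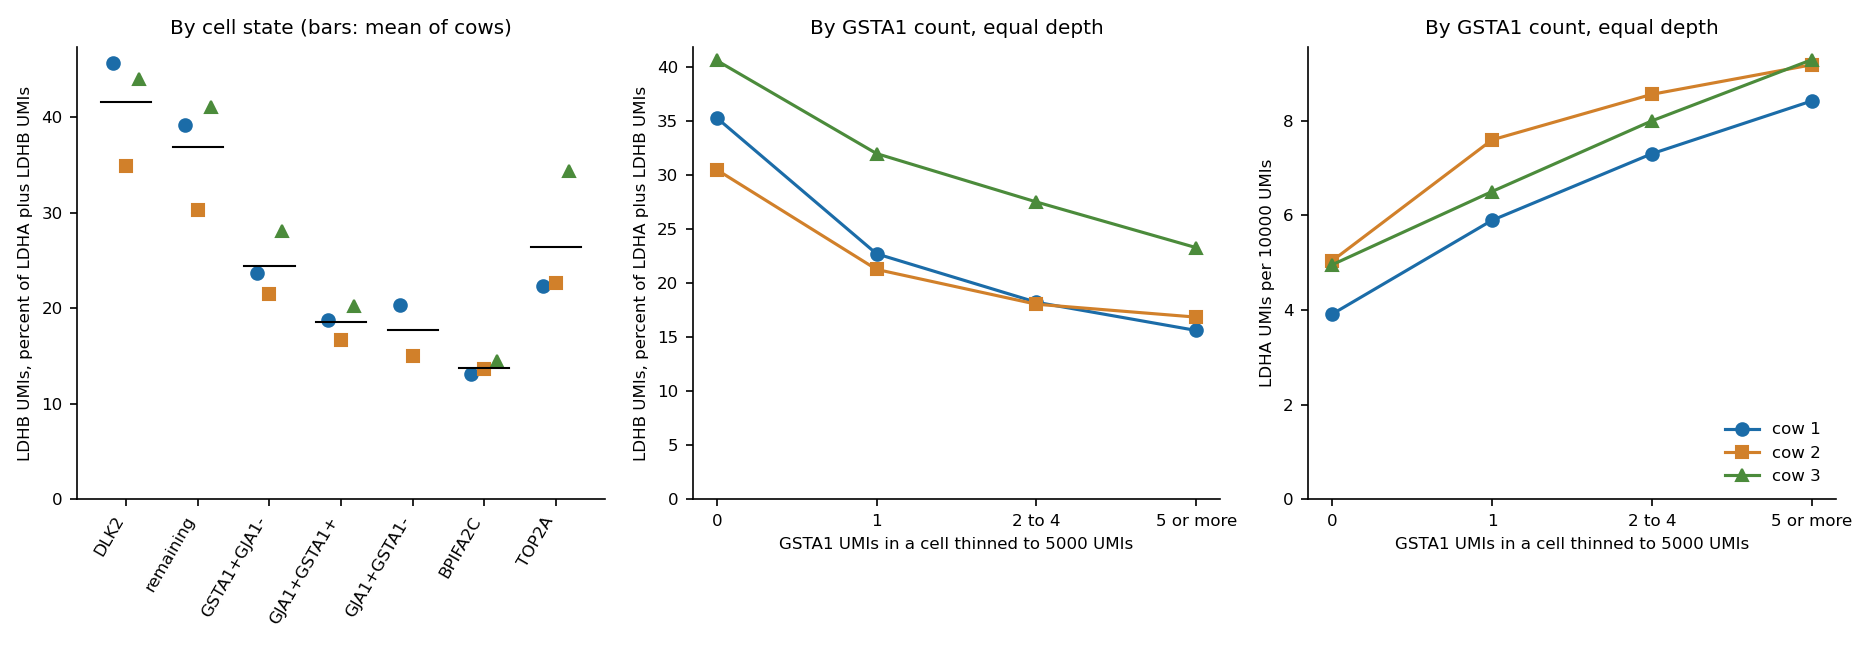
Left, LDHB UMIs as a percentage of LDHA plus LDHB UMIs in each state, with 1 point per cow and a bar at the mean; middle and right, the same share and the LDHA level (UMIs per 10000 UMIs) by the number of GSTA1 UMIs left in a cell thinned to 5000 UMIs, with 1 line per cow. In each cow the share is lower and LDHA higher at 5 or more GSTA1 UMIs than at 0, LDHA reaching 8.42 to 9.29.

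Cells with at least 2 UMIs of GSTA1 and fewer than 2 of GJA1 also stood higher in LDHA, ALDOA and PGK1. Against the remaining cells these 3 were called higher in the GSTA1+GJA1- state and no member lower, so edgeR called 3 of 8, DESeq2 called 3 and 6 had an unadjusted p under 0.05. Of all tested genes 30.9% were called, 16.5% higher and 14.4% lower. Among all 10174 tested genes 4242 had an unadjusted p under 0.05. LDHA had 3.38, 5.10 and 4.82 per 10000 in the remaining cells of cows 1, 2 and 3 and 6.402, 8.11 and 8.16 in the GSTA1+GJA1- cells. The groups did not overlap, and LDHA differed by 0.86 ± 0.11 on the log2 scale (edgeR adjusted p = 1.885e-06). ALDOA differed by 0.56 ± 0.09 (2.406e-05) and PGK1 by 0.52 ± 0.09 (6.306e-05), each higher within 3 of 3 cows. PKM, at 0.22 ± 0.08, stayed inside the fold threshold (edgeR adjusted p = 0.03412), and SLC2A1, GAPDH, ENO1 and LDHB lay between 0.02 and 0.20. With gates on thinned cells SLC2A1 joined the calls at 0.26, as it did at 0.41 in states drawn from clusters, which held 25.3% of the gated GSTA1+GJA1- cells. Without the cow term LDHA, ALDOA and PGK1 lost their calls, with edgeR adjusted p of 0.159, 0.531 and 0.362.

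Of the other glycolytic enzymes and glucose carriers 4 of 13 tested were called, a share near the 30.9% of all tested genes, which is also the share to set beside the other list counts of this contrast. TPI1 was higher by 0.64 ± 0.08 (edgeR adjusted p = 1.706e-06), PFKL by 0.55 ± 0.11 (0.0006592), GPI by 0.44 ± 0.09 (0.0004086) and PGAM1, a phosphoglycerate mutase, by 0.31 ± 0.08 (0.006919), and 0 were lower; 5 of the 13 had an unadjusted p under 0.05 and DESeq2 called 4. PFKFB3 was lower by -1.255 ± 0.24 (edgeR adjusted p = 0.0002327) and PFKFB4 higher by 0.83 ± 0.17 (0.000588). In the pyruvate entry list 7 of 10 tested genes were called higher and 2 lower. DLAT was higher by 0.67 ± 0.08 (edgeR adjusted p = 9.16e-07), the kinase PDK3 by 0.64 ± 0.12 (0.0001326) and PDHA1 by 0.51 ± 0.07 (1.023e-05), while the kinases PDK4 (-1.81 ± 0.16, 8.63e-09) and PDK1 (-0.42 ± 0.09, 0.001122), the latter chosen after its values were seen, were lower. Of 4 tested gluconeogenic genes 3 were called higher and 0 lower (3 had an unadjusted p under 0.05 and DESeq2 called 3). FBP1 was higher by 2.14 ± 0.20 (edgeR adjusted p = 2.681e-08), PCK2 by 1.00 ± 0.19 (0.0001876) and G6PC3 by 0.34 ± 0.09 (0.00686). Of the pentose phosphate pathway, TALDO1 (0.32 ± 0.12, edgeR adjusted p = 0.04113) and PGLS (0.30 ± 0.09, 0.01029) were higher, TALDO1 without a call by DESeq2. In the glycogen list 1 of 9 was higher, PYGB (0.91 ± 0.22, edgeR adjusted p = 0.002803), and 0 lower; 2 had an unadjusted p under 0.05 and DESeq2 called 1.

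Among the HIF1-linked genes EGLN3 was lower by -1.655 ± 0.23 (edgeR adjusted p = 6.588e-06), ANKRD37 by -1.15 ± 0.30 (0.004199), P4HA1 by -0.59 ± 0.10 (6.539e-05) and ADM, the vasodilator adrenomedullin, by -0.57 ± 0.15 (0.004044), and 6 of the 13 tested HIF1-linked genes were lower against 3 higher. Calls were lost without cow 1 by ADM, without cow 2 by G6PC3, TALDO1 and PGLS, and without cow 3 by G6PC3, TALDO1, PGLS, PYGB, ANKRD37 and PGAM1; under scaling by total UMIs PGAM1, TALDO1 and PGLS lost theirs. Of the listed genes named with values for this contrast, FBP1 and DLAT kept their calls without the cow term and the others lost them.

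In the TOP2A state the members split. TOP2A was tested first, so this state also kept cells with GSTA1, GJA1 or BPIFA2C, which the remaining cells lacked at the thresholds. Mean GSTA1 was 1.71 per 10000 in the TOP2A cells and 0.104 in the remaining cells. GJA1 stood at 0.665 and 0.0330, and BPIFA2C at 0.904 and 0.0605. The part of this mix in the differences of this contrast was not tested. Against the remaining cells LDHA and PGK1 were called higher and GAPDH, LDHB and ENO1 lower; 5 of 8 were called. Of all tested genes 42.4% were called, 21% higher and 21.5% lower. An unadjusted p under 0.05 was found for 6 of the 8 members and for 5136 of the 10174 tested genes. GAPDH had 7.28, 6.54 and 12.9 per 10000 in the remaining cells of cows 1, 2 and 3 and 4.46, 4.35 and 10.1 in the TOP2A cells. It was lower within each cow, cow 3's TOP2A cells still lying above the other cows' remaining cells, and GAPDH differed by -0.65 ± 0.08 on the log2 scale (edgeR adjusted p = 6.503e-07). LDHB was lower at -0.33 ± 0.08 (0.001798), a difference that under scaling by total UMIs was -0.22 and not called. ENO1 was lower at -0.28 ± 0.10 (edgeR adjusted p = 0.02897), although its level per 10000 was lower in 2 of 3 cows, and it lost the call without cow 1 (0.1242), without cow 2 (0.2908) and under scaling by total UMIs.

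LDHA had 5.83, 6.55 and 6.002 per 10000 in the TOP2A cells, above all remaining cells (3.38, 5.10 and 4.82). Cells with GSTA1, GJA1 or BPIFA2C within the TOP2A state were not set apart here. The LDHA log2 fold change of 0.38 ± 0.11 (edgeR adjusted p = 0.00768) lost the call without cow 1 (0.1383). It also lost it with gates on thinned cells (0.2072) and without the 5% of cells with most UMIs (0.0883). PGK1, at 0.35 ± 0.09 (0.002475), lay at 0.23 with gates on thinned cells, inside the fold threshold. PKM was higher within each cow at 0.22 ± 0.08, inside the fold threshold, and was called higher at 0.33 under scaling by total UMIs. Without the cow term the 5 members lost their calls, with edgeR adjusted p of 0.407 for GAPDH to 0.739 for ENO1.

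Of 13 other tested glycolytic enzymes and glucose carriers 1 was called higher and 2 lower in these cells, a smaller share than the 42.4% of all tested genes, which is also the share to set beside the other list counts of this contrast. TPI1 was higher by 0.58 ± 0.08 (edgeR adjusted p = 3.648e-06). The inositol carrier SLC2A13 was lower by -1.015 ± 0.32 (0.01307), a call lost without cow 1 and without cow 3, and PFKM by -0.49 ± 0.13 (0.003773), a call lost without cow 3. In the pyruvate entry list 5 of 10 tested genes were called higher and 2 lower. DLAT (0.68 ± 0.08, edgeR adjusted p = 4.859e-07) and DLD (0.59 ± 0.10, 3.786e-05) were higher. The kinases PDK4 (-2.02 ± 0.16, 3.157e-10) and PDK1 (-0.84 ± 0.10, 3.507e-07) were lower, but the kinase PDK3 was among the 5 called higher. Of 4 tested gluconeogenic genes 2 were called higher and 1 lower. FBP1 (1.52 ± 0.23, edgeR adjusted p = 8.34e-06) and PCK2 (1.495 ± 0.19, 5.77e-07) were higher, and FBP2, the muscle-type fructose bisphosphatase, went from 0.254 ± 0.0684 to 0.0867 ± 0.0276 per 10000 (-1.76 ± 0.20, 1.115e-07). PFKFB3 was lower at -1.60 ± 0.27 (edgeR adjusted p = 4.494e-05) and PFKFB4 higher at 0.50 ± 0.19 (0.0363), the latter not called by DESeq2 or without cow 1 or cow 2. In the pentose phosphate list 1 of 7 tested genes was higher, PGD (0.29 ± 0.10, edgeR adjusted p = 0.02221), which lost the call without cow 1 and without cow 3, and 1 lower, TKT (-0.37 ± 0.08, 0.0002808). In the glycogen list 2 of 9 were higher, PYGB (0.74 ± 0.24, edgeR adjusted p = 0.01512) and PGM2 (0.53 ± 0.14, 0.003494), and 1 lower, GYG1 (-0.78 ± 0.13, 1.87e-05); PYGB lost the call without cow 1 and without cow 2, and PGM2 without cow 1. Of the 13 tested HIF1-linked genes 6 were called lower and 0 higher, 9 having an unadjusted p under 0.05 and 6 being called by DESeq2; ANKRD37 (-1.42 ± 0.33), P4HA1 (-1.02 ± 0.11), ADM (-1.01 ± 0.16) and EGLN3 (-1.001 ± 0.22) were among them. Without the cow term DLAT, PDK1, FBP1, FBP2, PCK2 and P4HA1 kept their calls, and the other listed genes named with values for this contrast lost them.

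BPIFA2C was tested before GJA1 and GSTA1, so the BPIFA2C state was not set apart by those genes. GJA1 was detected in 89.0%, 94.4% and 81.0% of its cells in cows 1, 2 and 3, and GSTA1 in 91.3%, 97.2% and 98.3%. The BPIFA2C state differed from the GJA1+GSTA1+ state in LDHB, called lower, and in no other of the 8 tested members. Of the members 4 had an unadjusted p under 0.05 and DESeq2 called 1. Of all tested genes 1.1% were called, 0.914% higher and 0.187% lower. Among all 10174 tested genes 846 had an unadjusted p under 0.05. LDHB had 1.86, 1.84 and 2.57 per 10000 in the GJA1+GSTA1+ cells of cows 1, 2 and 3 and 1.17, 1.36 and 1.79 in the BPIFA2C cells. The groups did not overlap, and LDHB differed by -0.48 ± 0.09 on the log2 scale (edgeR adjusted p = 0.002536). The call was lost without cow 2, at -0.53 with an edgeR adjusted p of 0.06992, and without the cow term. LDHA stood at 7.76, 8.62 and 10.6 per 10000 in the BPIFA2C cells, with a log2 fold change of 0.04 and a 95% interval of -0.19 to 0.27. GAPDH, ENO1 and PKM lay between -0.28 and -0.21 with edgeR adjusted p of 0.3479 to 0.5053.

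Some BPIFA2C cells, 28, 5 and 18 in cows 1, 2 and 3, had under 1% mitochondrial UMIs. LDHB stood at 0.935, 1.36 and 0.434 per 10000 in them, on 13, 3 and 6 UMIs, and at 1.17, 1.36 and 1.91 in the other BPIFA2C cells. Without them the LDHB difference was -0.45 and still called (edgeR adjusted p = 0.005753). FBP1 was the listed gene called higher in the BPIFA2C state, at 1.22 ± 0.22 (edgeR adjusted p = 0.003054), and it lost the call without cow 2, without the cow term and without the 5% of cells with most UMIs.

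In the other 2 contrasts 0 of the 8 members were called by edgeR. Between the GJA1+GSTA1- and GJA1+GSTA1+ states, in cows 1 and 2, 0.0983% of all genes were called, 0.0197% higher and 0.0786% lower. Of the members 1, ENO1, had an unadjusted p under 0.05 and DESeq2 called 0. Among all 10174 tested genes 724 had an unadjusted p under 0.05. GSTA1 was still detected, at 1 UMI, in 42.3% and 54.3% of the GJA1+GSTA1- cells of cows 1 and 2. LDHA had 7.36 and 10.0 per 10000 in the GJA1+GSTA1- cells of these cows against 8.08 and 9.19. Its log2 fold change was -0.10 with a 95% interval of -0.38 to 0.17. SLC2A1, on 21 UMIs, differed by -0.55 (-1.17 to 0.073). With gates at 1 UMI, where the GJA1+GSTA1- cells had no GSTA1 UMI, LDHA (-0.79), ALDOA (-0.53) and PGK1 (-0.49) were called lower in that state.

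Between the DLK2 state and the remaining cells 1.46% of all genes were called, 0.462% higher and 1% lower. Of the members 1, LDHA, had an unadjusted p under 0.05, and DESeq2 called 0. Among all 10174 tested genes 1147 had an unadjusted p under 0.05. LDHA was lower within each cow, at -0.28 (95% interval -0.51 to -0.051; edgeR adjusted p = 0.2851). The interval for ALDOA was -0.33 to 0.028 and for PGK1 -0.31 to 0.056. With gates on thinned cells LDHA (-0.44) and ALDOA (-0.31) were called lower in the DLK2 state. In states drawn from clusters, which held 71.7% of the gated DLK2 cells and 45.8% of the remaining cells in the same state, LDHA (-0.92), ALDOA (-0.64), PGK1 (-0.52), PKM (-0.36) and GAPDH (-0.36) were called lower, given as a description.

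Cow 3 stood apart from the others for several members. Across the states GAPDH was 1.67 to 2.26 times as high in cow 3 as in cow 1 and 1.92 to 2.32 times as high as in cow 2. ENO1 in cow 3 was 1.40 to 1.94 times cow 1's level and 1.32 to 2.06 times cow 2's, and ALDOA was 1.53 to 1.90 and 1.21 to 1.62 times. SLC2A1 was instead highest in cow 1, with cow 2 at 0.559 to 0.926 and cow 3 at 0.586 to 0.832 times its level. The summed KRT5, KRT14 and KRT19 level was also highest in cow 3, at 122.7 per 10000 against 58.0 and 69.3 in cows 1 and 2, and its part in these differences was not tested. With 1 library per cow, animal and library cannot be told apart.

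Once each cow's mean was removed, the members did not vary as 1 block over the 18 sums of 6 states and 3 cows. As a description, ALDOA followed LDHA with a Pearson r of 0.96, PGK1 followed LDHA with 0.93 and SLC2A1 followed LDHA with 0.77. GAPDH followed ENO1 with 0.80 but LDHA with 0.24, and LDHB ran against LDHA with -0.57. Sums of a cow share a library, and all share the state definitions, so these values carry no test. The 5 genes whose pattern was most like the members' mean score were GSTP1.1 (0.95) and GSTM1 (0.92), glutathione transferases, ATP5F1C (0.95), a subunit of the mitochondrial ATP synthase, MRPL2 (0.94), a protein of the mitochondrial ribosome, and S100A4 (0.92), a calcium-binding protein. The score is the mean z score of the 8 tested members. The members followed it unequally, from 0.86 for ALDOA to 0.36 for PKM and 0.03 for LDHB, so it does not stand for each of them.

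Several of these genes, GAPDH, PGK1, LDHA, ENO1, ALDOA and PKM among them, have near-identical processed copies in mammalian genomes, and reads that align equally well to several genes are not counted by Cell Ranger, so levels of such genes are uncertain. No state is expected to lack these genes, so free RNA in the droplets could not be estimated from them and its part in the low levels was not tested.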

How the data were processed

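The deposited matrix holds UMI counts per gene and cell, which the authors made with Cell Ranger 3.1.0 against the cow ARS-UCD1.2 genome with Ensembl annotation; they filtered cells, sought doublets with DoubletFinder and removed non-epithelial cells, and no further doublet filter was applied. A second deposited table holds natural log values of the same counts, scaled per cell by the authors, and supplied only the gene names. Cells were assigned to cows by the number that ends their barcode, matched to the sample titles. Counts were summed by state and cow, leaving out 1 sum under 10 cells, and 20 sums were fitted in edgeR 4.0.16 with TMM scaling, a low count filter and the cow as a block (1 state against another); the script was tested on simulated data. The cow number pairs sums because they come from the same animal. Deviations of sums from their state's mean over the cows correlated at a mean of 0.631, 0.594 and 0.624 within cows. Between cows the mean was -0.340, but taking out a mean over 3 cows pushes that value below 0 by itself. DESeq2 1.42.0 and other gates, scalings and subsets were alternatives. The 95% intervals use the t distribution at the test's degrees of freedom and are widened where edgeR's bound on the dispersion raised p. The p-values do not measure the spread between animals, which the cow term removes. They rest on the scatter left after it, how unevenly the states differed among 3 animals, each with 1 library. This scatter was pooled over the 20 sums of all states, so the GJA1+GSTA1- intervals also lean on the other states. The coefficient of variation between sums, as estimated by edgeR, was 0.0803 with the cow term and 0.282 without it. Named genes were all members, and up to 4 called genes per list and contrast with the largest change, with exceptions named in the text; 1 listed gene is not reported here. Members and lists were chosen with earlier results of these data known. HK2 and PFKP did not pass the filter in the gated sums and were described by counts.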

Additional observations from a re-analysis of the deposited data

How the results depend on the processing

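Calls rested on within-cow differences. With the replicate block removed from the fit (the cow term that pairs the sums), members called went from 4 to 2 in GJA1+GSTA1+ against DLK2, from 3 to 0 in GSTA1+GJA1- against remaining, from 1 to 0 in BPIFA2C against GJA1+GSTA1+ and from 5 to 0 in TOP2A against remaining, and over all genes from 4494 to 1710, 3146 to 222, 112 to 10, 4318 to 920, 149 to 5 (DLK2 against remaining) and 10 to 1 (GJA1+GSTA1- against GJA1+GSTA1+). Leaving out a cow gave 4 to 5, 0 to 1 and 3 to 5 members in GJA1+GSTA1+ against DLK2, BPIFA2C against GJA1+GSTA1+ and TOP2A against remaining; GSTA1+GJA1- against remaining gave 3 each time. In GJA1+GSTA1- against GJA1+GSTA1+ leaving out cow 1 or 2 left that state with 1 sum, assumed to vary like the other groups, so those values say nothing of stability. In each case fewer samples or a larger residual spread came with the change; for other settings the cause was not tested. Without the filter on low counts 1 member (LDHA) was called in DLK2 against remaining. Gates on cells thinned to 2500 UMIs, set at 1 UMI and at 3 of BPIFA2C and leaving out 342 shallower cells, changed depth and threshold together and gave 2 there and 3 in TOP2A against remaining. Gates at 1 UMI, and at 2 of BPIFA2C, gave 3 in GJA1+GSTA1- against GJA1+GSTA1+. States drawn from clusters, made in each cow without the members and listed genes and read as a description, gave 5 in DLK2 against remaining (all lower), 7 in GJA1+GSTA1+ against DLK2 (6 higher; the other, HK2, is too sparse to be read) and 2 in TOP2A against remaining; their BPIFA2C state held cows 1 and 3 alone and their GJA1+GSTA1- state cow 3 alone. These states held 78.1% of the gated TOP2A cells, 12.1% of BPIFA2C, 55.4% of GJA1+GSTA1+, 0.962% of GJA1+GSTA1-, 25.3% of GSTA1+GJA1-, 71.7% of DLK2 and 45.8% of the remaining cells, so they are no check of the same cells. The folds that assigned clusters, the scaling by total UMIs and the low-mitochondrial subset were chosen after seeing the data.

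Counts over all genes also moved by more than 1.5 times. DLK2 against remaining gave 405 without the filter, 46 and 12 without cows 1 and 2, 644 with gates on thinned cells and 2342 from clusters. GJA1+GSTA1- against GJA1+GSTA1+ gave 25 with DESeq2, 83 without the filter and 26 without cow 3. It gave 1447 with gates at 1 UMI, 74 on thinned cells and 18 without the 5% of cells with most UMIs. BPIFA2C against GJA1+GSTA1+ gave 209 without the filter, 47 without cow 2, 671 from clusters, 67 without the 5% of cells with most UMIs and 69 without low-mitochondrial cells. GSTA1+GJA1- against remaining gave 2039 without cow 2, 1764 with gates at 1 UMI and 1725 from clusters, and TOP2A against remaining 2551 from clusters. Scaling by total UMIs shifted the median log2 fold change by -0.14 in GJA1+GSTA1+ against DLK2 and by 0.11 in TOP2A against remaining. The share of calls that were higher went from 49.0% to 35.1%, from 49.4% to 65.3% and, in GSTA1+GJA1- against remaining, BPIFA2C against GJA1+GSTA1+ and GJA1+GSTA1- against GJA1+GSTA1+, from 53.3% to 39.4%, 83.0% to 67.6% and 20.0% to 41.7%.

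Among 632 member values under alternatives, 45 changed sign, all of members not called before and 1 of them called after it (PGK1, -0.49, GJA1+GSTA1- against GJA1+GSTA1+, gates at 1 UMI). In that contrast the log2 fold change became -0.17 for ENO1, -0.011 for PKM and 0.089 for LDHB with gates at 1 UMI, -0.13 for PGK1 on thinned cells, -0.012 for PGK1 without the filter, -0.14 for PGK1 and -0.17 for PKM without the replicate block, 0.066 for ALDOA, 0.061 for GAPDH and 0.021 for LDHB under scaling by total UMIs, and 0.080 for SLC2A1, 0.0085 for GAPDH, -0.086 for PGK1 and 0.095 for LDHB from clusters. In GSTA1+GJA1- against remaining LDHB became -0.0059 with DESeq2, -0.056 on thinned cells, -0.013 without mitochondrial genes, -0.019 without the filter, -0.067 under scaling by total UMIs, -0.062 from clusters and -0.0066 without the 5% of cells with most UMIs, and GAPDH -0.0059 from clusters. In DLK2 against remaining LDHB became -0.027 on thinned cells, -0.020 without the filter and -0.20 from clusters, and SLC2A1 0.14 on thinned cells and 0.00065 under scaling by total UMIs. In BPIFA2C against GJA1+GSTA1+ PGK1 became 0.00034 on thinned cells, LDHA -0.026 under scaling by total UMIs, and ALDOA 0.18, PGK1 0.17, ENO1 0.29 and PKM 0.17 from clusters. In TOP2A against remaining ALDOA became -0.0045 on thinned cells and -0.14 from clusters, and SLC2A1 0.083 under scaling by total UMIs and 0.024 from clusters. Leaving out a cow gave ranges of -0.020 to 0.035 (LDHB, DLK2 against remaining), -0.12 to 0.030, -0.15 to 0.14 and -0.022 to 0.15 (ALDOA, PGK1 and PKM, GJA1+GSTA1- against GJA1+GSTA1+), -0.0091 to 0.066 (LDHA, BPIFA2C against GJA1+GSTA1+) and -0.12 to 0.058 (SLC2A1, TOP2A against remaining). The LDHB share difference kept its direction and moved by less than the spread between cows under each alternative run for it (each cow left out, gates at 1 UMI and on thinned cells, clusters and the 5% of cells with most UMIs left out). A minimum of 30 cells gave the same sums.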
